A study of Mus musculus with 6 samples.

Results

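Protein phosphatase 2A (PP2A) is built on a catalytic C subunit and a scaffold A subunit, and each is encoded by a pair of genes in the mouse. The 6 genes described here are Ppp2ca and Ppp2cb (catalytic alpha and beta), Ppp2r1a and Ppp2r1b (scaffold alpha and beta), and Ppp4c and Ppp6c, the catalytic subunits of the related phosphatases PP4 and PP6. They were taken by gene symbol from 52550 genes, each symbol matched 1 gene, and all 6 passed the filter on low values. RNA was sequenced from bone marrow cells labelled as hematopoietic stem cells in 3 knockout (KO) and 3 control (WT) libraries. The KO genotype is labelled VAV1crePpp2caf/f and the WT genotype Ppp2caf/f, so both groups carry the floxed Ppp2ca alleles and the KO group alone a Cre recombinase under Vav1, a promoter active in blood cells. Age, sex, strain and the deleted exons are not given in the labels. The labels do not tie the libraries to animals, and if they share one the spread behind each p-value is technical. The comparison asks how the targeted subunit, its paralog and its partners differ between the genotypes.

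PP2A removes phosphate from serine and threonine residues. The scaffold is a horseshoe of repeated helices that holds the catalytic subunit on one side and a changeable regulatory B subunit on the other, and the B subunit sets where the enzyme acts. Free catalytic subunit is unstable in cells, and the alpha and beta catalytic proteins are nearly identical. PP4 and PP6 have catalytic subunits close to that of PP2A, share with it the regulatory protein encoded by Igbp1, and use regulatory subunits of their own in place of the PP2A scaffold.

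The deposited values are read counts divided by 1 size factor per library, called normalised reads below. They are not divided by gene length, so levels of different genes are compared per kilobase, and shares of reads are named as such and describe the reads, not the levels. KO libraries held 46033994, 50992981 and 58692037 reads over genes and WT libraries 37951985, 48665968 and 47815466. In bulk samples, less RNA per cell and fewer cells of a type cannot be told apart, and the marker lists differed between the groups. The counts of called markers that follow (limma adjusted p below 0.05) stand beside 23.3% of all 20136 genes tested. Of all these genes, 10.3% were called higher and 13% lower in KO. Of 9 stem cell markers, 8 were lower in KO, with summed values of 2941 to 5053 normalised reads in KO and 17313 to 22944 in WT. Of 7 granulocyte-monocyte progenitor markers, 6 were higher, with sums of 1858261 to 2073152 in KO and 1252852 to 1484506 in WT. These sums were mostly Mpo (1237100 ± 83065 in KO, 955000 ± 73004 in WT). Csf1r, the remaining marker, had a lower mean in KO (4526 ± 1896, against 6766 ± 1044 in WT) and did not pass the test. All 7 erythroid (2621 to 4092 in KO, 10725 to 15222 in WT), all 6 megakaryocyte (4776 to 6646 in KO, 20410 to 24587 in WT) and all 7 dendritic markers (15118 to 16929 in KO, 40076 to 47398 in WT) were lower. So were 4 of 7 monocyte and macrophage markers (21673 to 28304 in KO, 56197 to 66530 in WT). Of 4 tested B lineage markers, 1 was lower, or 25% (list sums 2371 to 3712 in KO, 13344 to 32159 in WT). That gene, Igkc, averaged 510 ± 263 in KO and 17627 ± 10383 in WT, where it made up most of the sum. The KO sum was mostly Cd79b (2533 ± 396 in KO, 2632 ± 96.6 in WT), which did not pass the test. Ebf1 and Pax5 were at 0 in every library. Of 6 tested T and NK markers, 4 were lower and 1 higher, and their sum (41713 to 43915 in KO, 33841 to 35281 in WT) was nearly all Nkg7, the marker that was higher (42658 ± 1094 in KO, 34159 ± 730 in WT). Of 7 mature granulocyte markers, 2 were higher and 1 lower (114590 to 254939 in KO, 82101 to 139538 in WT). Of 9 markers of stromal and endothelial cells, 5 could be tested and 3 were lower, and Cdh5 and Col3a1 were at 0 in every library. Cxcl12, among the 3, was at 0 in every KO library. Kdr and Col1a2, the others called in this list, were at 0 in a KO library, as were the stem cell markers Fgd5 and Hoxb5. The dendritic marker Siglech was above 0 in KO replicate 2 only. All of these passed the filter on low values only with the WT libraries, so their calls are a description. The sum of the stromal and endothelial list (823 to 1488 in KO, 1275 to 1624 in WT) was mostly Pdgfrb. Pdgfrb averaged 1093 ± 326 in KO and 1195 ± 199 in WT (SD, n = 3 each) and did not pass the test. The part of these differences in the values below was not tested.

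The catalytic pair can be told apart by sequence, although the encoded proteins hardly differ. The coding sequences of Ppp2ca (GRCm38 chromosome 11, 52098681 to 52127778, plus strand) and Ppp2cb (chromosome 8, 33599625 to 33619441, plus strand) are each 930 bases with the stop codon. They differ at 170 bases, of which 143 stand at the last position of a codon. Of 309 codons, 152 differ, and 144 of these encode the same residue. The stretch below, from the GENCODE M21 transcripts, holds the 90 bases where the pair is most alike (coding positions 160 to 249, counted from the start codon, in exon 2 of each gene), shown because even there the genes can be told apart. Capitals mark the 13 bases that differ from the paralog.
Ppp2ca, most alike: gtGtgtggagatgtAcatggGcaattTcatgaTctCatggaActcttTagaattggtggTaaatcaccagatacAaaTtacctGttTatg
Ppp2cb, most alike: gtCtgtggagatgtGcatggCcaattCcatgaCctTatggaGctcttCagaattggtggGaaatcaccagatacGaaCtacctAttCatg

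Differences are spread along the whole pair, so no long stretch is shared. The longest identical run in the coding alignment was 25 bases, and the coding identity was 81.7%. No stretch of 50 bases of the principal Ppp2cb transcript occurred on the same strand of a transcript of another gene. The same held for Ppp2r1b, Ppp4c and Ppp6c, while 0.127% of the 50-base stretches of Ppp2r1a and 1.64% of those of Ppp2ca occurred elsewhere, and none of 100 bases did for any of the 6 genes. The scaffold pair, Ppp2r1a (chromosome 17, 20945311 to 20965916, plus strand) and Ppp2r1b (chromosome 9, 50845301 to 50894229, plus strand), had a coding identity of 76.8%. Ppp4c (chromosome 7, 126785866 to 126792496, minus strand) and Ppp6c (chromosome 2, 39194354 to 39226451, minus strand) shared 65.5% and 63.2% with Ppp2ca and 62.5% with each other.

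Ppp2ca fell in KO, and held the most reads of the 4 catalytic genes in each library, a count not divided by length. KO libraries held 23728, 22419 and 24046 normalised reads of Ppp2ca, against 32909, 33451 and 33169 in WT libraries. All KO values lay below all WT values, and neither group varied much, with a coefficient of variation of 3.69% in KO and 0.817% in WT. The KO mean was 70.5% of the WT mean, and the log2 fold change was −0.50 ± 0.07 (SE, n = 3 each, 95% interval −0.66 to −0.34, limma adjusted p = 0.00268). Of all 20136 genes tested, 23.3% passed the same test, 10.3% higher and 13% lower in KO. Ppp2ca kept its direction and its call in all 19 alternative fits, with log2 fold changes of −0.78 to −0.46. A value for a whole gene does not measure how many alleles were deleted.

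**Figure D1:**
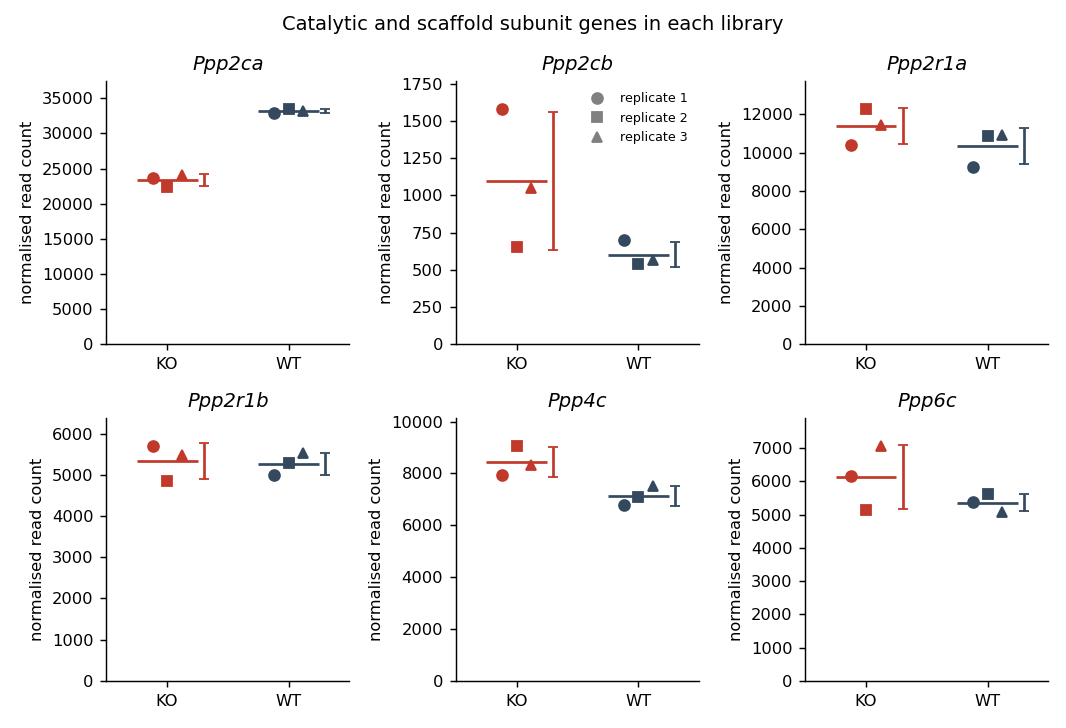
Normalised read counts (vertical axes, each from 0) of the 6 genes in the 3 KO and 3 WT libraries. Points are libraries, horizontal bars group means and error bars SD. Ppp2ca lies at 22419 to 24046 in KO, below every WT library, and Ppp2cb is spread over 656 to 1580 in KO.

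Ppp2cb, the beta catalytic gene, held the fewest reads of the genes described here in every library, not divided by length, and was uneven among KO libraries. Its mean over all libraries was above that of 60.6% of all genes tested. Ppp2cb had 1580, 656 and 1051 normalised reads in KO and 701, 541 and 566 in WT. KO replicates 1 and 3 lay above all WT libraries, while KO replicate 2 lay below WT replicate 1, so the groups overlapped. The KO mean of 1096 ± 463 and the WT mean of 603 ± 85.7 (SD, n = 3 each) gave a log2 fold change of 0.78 ± 0.30 (SE, 95% interval 0.09 to 1.47) that did not pass the test (limma adjusted p = 0.102). Without KO replicate 2 it was 1.10 and passed (limma adjusted p = 0.0140), and over all 19 alternatives the adjusted p ran between 0.0140 and 0.224 and passed in 4. The recovered reads behind these values were 668 to 1474 per KO library and 569 to 599 per WT library.

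The beta gene stayed the minor part of the catalytic reads in both genotypes. Ppp2ca and Ppp2cb together had 25308, 23075 and 25097 normalised reads in KO, against 33610, 33992 and 33735 in WT, so the summed KO mean was 72.5% of the WT mean. The mean difference, KO minus WT, was 493 normalised reads for Ppp2cb and −9778 for Ppp2ca, both not divided by length. Per kilobase of exonic length, Ppp2cb averaged 746 in KO and 410 in WT, and Ppp2ca 3124 in KO and 4429 in WT. In reads not divided by length, Ppp2cb held 6.24%, 2.84% and 4.19% of the reads of the pair in KO and 2.08%, 1.59% and 1.68% in WT. Divided by exonic length, its share was 18.9% ± 6.20 in KO and 8.47% ± 1.16 in WT (SD, n = 3 each). This share depends on the length used, because Ppp2ca has a long 3′ untranslated region. The principal Ppp2ca transcript has 7102 bases, 5804 of them after the stop codon, against 1469 and 247 for Ppp2cb.

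The share of Ppp2ca among all 4 catalytic genes was lower in KO with each length, but its size and rank depended on the length. Per exonic length Ppp2ca held 42.3%, 44.6% and 43.0% in KO, against 57.3%, 57.6% and 57.4% in WT. Ppp4c held 27.4% ± 3.59 in KO and 21.6% ± 1.10 in WT, Ppp6c 19.0% ± 2.07 in KO and 15.6% ± 0.741 in WT, and Ppp2cb 10.2% ± 3.90 in KO and 5.32% ± 0.788 in WT (SD, n = 3 each). Per principal transcript length Ppp4c came first, with 52.2% ± 4.36 in KO and 44.3% ± 1.59 in WT, and Ppp2ca held 28.5% ± 0.548 in KO and 40.7% ± 0.612 in WT. In reads not divided by length, Ppp2ca held 59.9% ± 0.457 in KO and 71.7% ± 0.177 in WT. Shares of a sum are bound to each other, so a lower share of Ppp2ca goes with a higher summed share of the other genes.

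Neither scaffold gene passed the test. Ppp2r1a, the main scaffold gene, had 10412, 12266 and 11463 normalised reads in KO, against 9240, 10885 and 10918 in WT. The groups overlapped, with KO replicate 1 below 2 of the WT libraries, and the log2 fold change of 0.14 ± 0.10 (SE, 95% interval −0.10 to 0.37) did not pass (limma adjusted p = 0.383). Ppp2r1b, the second scaffold gene, had 5699, 4843 and 5468 normalised reads in KO and 4989, 5277 and 5518 in WT. KO replicate 2 held the lowest value of all 6 libraries and KO replicate 1 the highest, and the log2 fold change was 0.02 ± 0.09 (SE, 95% interval −0.20 to 0.24, limma adjusted p = 0.914). The sign of the change depended on the scaling for both. Scaled to the library total, the log2 fold changes were −0.0045 for Ppp2r1a and −0.12 for Ppp2r1b, and with quantile normalization −0.04 and −0.08. Together the scaffold genes had 16717 ± 532 normalised reads in KO and 15609 ± 1203 in WT (SD, n = 3 each).

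Ppp4c and Ppp6c, which are known to act in other holoenzymes, had higher means in KO that did not pass the test. Ppp4c had 7921, 9059 and 8328 normalised reads in KO, against 6770, 7078 and 7529 in WT, and every KO library lay above every WT library. Its log2 fold change was 0.24 ± 0.09 (SE, 95% interval 0.04 to 0.44, limma adjusted p = 0.0839). It passed with library quality weights and with upper quartile scaling (limma adjusted p = 0.0323 and 0.0360), and ran up to 0.484 over the 19 alternatives. Ppp6c had 6170, 5145 and 7061 normalised reads in KO and 5384, 5606 and 5084 in WT. The groups overlapped, since KO replicate 2 lay below 2 WT libraries, and the log2 fold change of 0.18 ± 0.12 (SE, 95% interval −0.10 to 0.47) did not pass (limma adjusted p = 0.342). Of the 6 genes, 1 was called, or 16.7%, against 23.3% of all genes tested. In 2 of the 6, Ppp2ca and Ppp4c, the groups did not overlap, as in 40.9% of all genes tested.

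**Figure D2:**
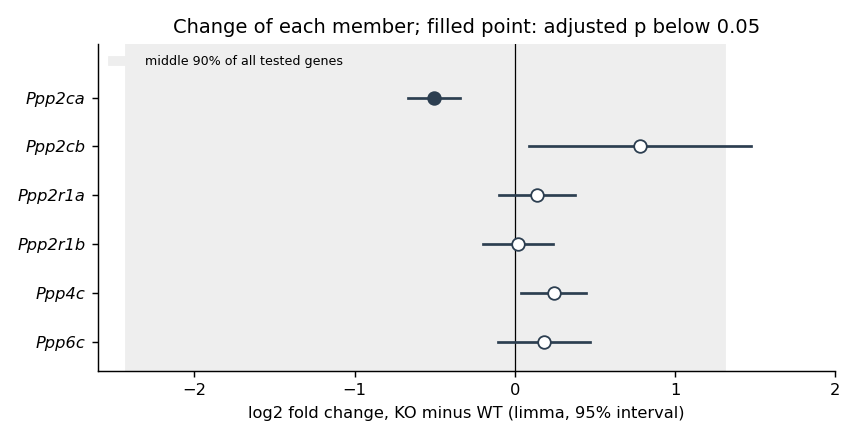
Log2 fold changes of the 6 genes, KO minus WT (horizontal axis, limma on log2(value + 1)), as points with 95% intervals, and the range holding the middle 90% of all tested genes in grey. Ppp2ca at −0.50 is the filled point that passed the test, and the intervals of Ppp2r1a, Ppp2r1b and Ppp6c cross 0.

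KO libraries also differed among themselves in these genes. Ppp2ca, Ppp2cb, Ppp2r1b and Ppp6c had their lowest KO value in replicate 2, and Ppp2r1a and Ppp4c had their highest KO value there. The coefficient of variation in KO was 42.3% for Ppp2cb and 15.7% for Ppp6c, against 14.2% and 4.89% in WT. For Ppp2r1a, Ppp2r1b and Ppp4c it lay between 6.83% and 8.30% in KO and between 5.04% and 9.27% in WT.

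Ratios within a library do not depend on how libraries were scaled to each other, and all 3 ratios with Ppp2ca on top, and that of catalytic to scaffold reads, were lower in KO. Per exonic length, Ppp2ca stood at 2.95, 6.70 and 4.49 times the level of Ppp2cb in KO, against 9.21, 12.1 and 11.5 times in WT. Ppp2ca stood at 1.71, 1.41 and 1.65 times Ppp4c in KO, against 2.78, 2.70 and 2.52 in WT. It stood at 2.28, 2.59 and 2.02 times Ppp6c in KO, against 3.63, 3.54 and 3.87 in WT. In each of these ratios the groups did not overlap. The differences, KO minus WT, were −1.29 ± 0.36, −0.75 ± 0.09 and −0.69 ± 0.11 on the log2 scale (SE, n = 3 each). Each had p = 0.10 in an exact two-sided permutation test, the smallest value that 3 against 3 libraries allow, and 0.15 after Benjamini-Hochberg adjustment over the 6 ratios, so none could pass the threshold.

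The ratio of summed catalytic to summed scaffold levels per exonic length was 1.08, 0.791 and 0.933 in KO, against 1.40, 1.21 and 1.19 in WT. KO replicate 1 came closest to the WT libraries, and the groups did not overlap. The difference was −0.44 ± 0.15 on the log2 scale (SE, n = 3 each, exact two-sided permutation p = 0.10, adjusted 0.15). The value of this ratio depends on the length chosen. With coding length it was 2.89 ± 0.23 in KO and 4.29 ± 0.33 in WT, and with the principal transcript 0.656 ± 0.095 in KO and 0.890 ± 0.080 in WT (SD, n = 3 each). The ratio was lower in KO with each of these lengths.

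The 2 ratios without Ppp2ca overlapped between the genotypes. Ppp2r1a stood at 3.45, 4.79 and 3.96 times Ppp2r1b per exonic length in KO and 3.50, 3.90 and 3.74 times in WT. The difference was 0.12 ± 0.14 on the log2 scale (SE, n = 3 each, exact permutation p = 0.50, adjusted 0.60). Ppp4c stood at 1.33, 1.83 and 1.22 times Ppp6c in KO and 1.31, 1.31 and 1.54 times in WT, a difference of 0.06 ± 0.19 (SE, exact permutation p = 0.80, adjusted 0.80). In both ratios KO replicate 2 held the highest value.

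**Figure D3:**
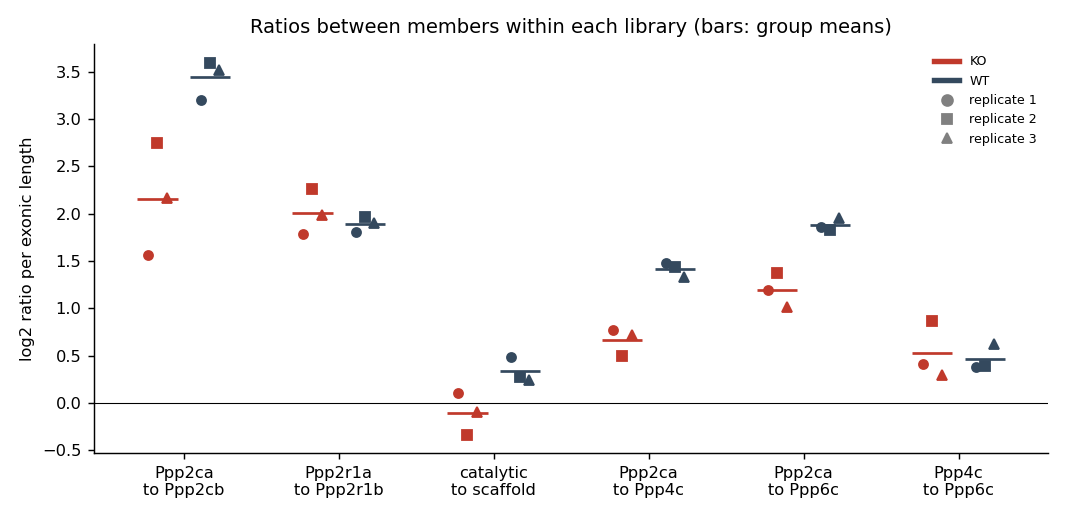
Log2 ratios between the genes within each library, per exonic length (vertical axis), for KO and WT libraries, with horizontal bars at the group means. KO and WT do not overlap in the ratios of Ppp2ca to Ppp2cb, Ppp4c and Ppp6c and of catalytic to scaffold, and overlap in the other two.

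The order of the levels depended on the length used. Per kilobase of exonic length, the KO order was Ppp2r1a (3336 ± 273 normalised reads per kb), Ppp2ca (3124 ± 115), Ppp4c (1971 ± 135), Ppp6c (1378 ± 216), Ppp2r1b (828 ± 68.7) and Ppp2cb (746 ± 315, SD, n = 3). In WT it was Ppp2ca (4429 ± 36.2), Ppp2r1a (3034 ± 281), Ppp4c (1665 ± 89.1), Ppp6c (1206 ± 59.0), Ppp2r1b (816 ± 41.1) and Ppp2cb (410 ± 58.4, SD, n = 3). Libraries of neighbouring genes overlapped in KO between Ppp2r1a and Ppp2ca and between Ppp2r1b and Ppp2cb, and nowhere in WT. Per kilobase of coding sequence, Ppp2ca was first in both groups, at 25240 ± 930 in KO and 35789 ± 292 in WT, and Ppp4c second, at 9160 ± 626 in KO and 7737 ± 414 in WT. Per kilobase of the principal transcript, Ppp4c was first, at 6026 ± 412 in KO and 5090 ± 273 in WT. By its mean, Ppp2cb was last under all 3 lengths in both groups.

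**Figure D4:**
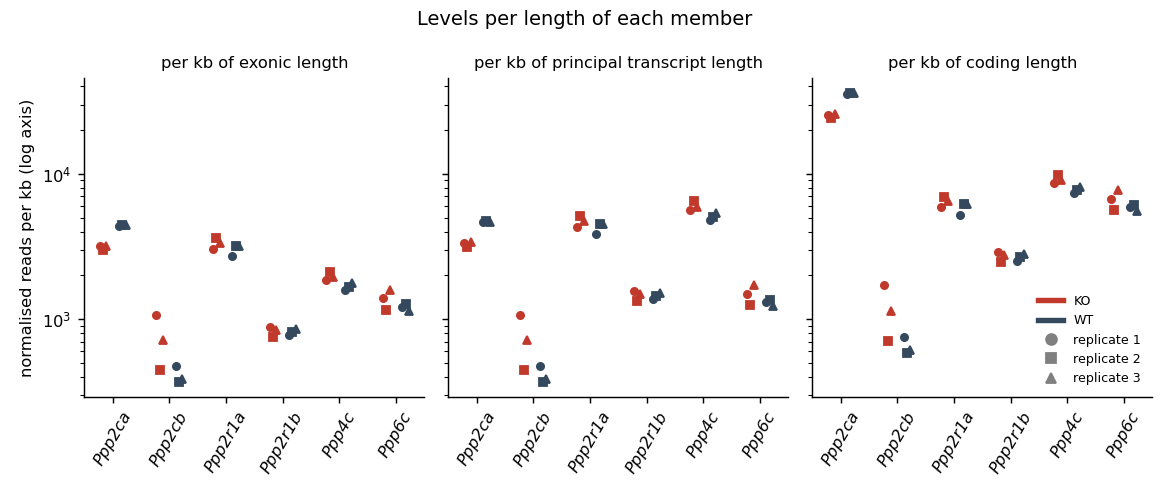
Normalised reads per kilobase of each gene in each library (vertical log axis), with exonic, principal transcript and coding length in the 3 panels, for KO and WT libraries. Ppp2ca lies at 3124 in KO and 4429 in WT per kb of exons, but at 25240 in KO and 35789 in WT per kb of coding sequence, while Ppp2cb has the lowest mean of its group in every panel.

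Ppp2ca shares its last exon with an antisense transcript that was higher in KO. 9430098F02Rik, annotated as a long non-coding RNA on the minus strand (chromosome 11, 52124530 to 52127779), overlaps 2985 exonic bases of Ppp2ca, or 39.9%, all in exon 7. It had 141, 108 and 135 normalised reads in KO, against 63.2, 24.7 and 22.7 in WT, and every KO library lay above every WT library. The log2 fold change was 1.92 ± 0.46 (SE, n = 3 each, limma adjusted p = 0.0212). Leaving out KO replicate 1, KO replicate 3, WT replicate 2 or WT replicate 3 ended the call, and the limma adjusted p then reached 0.0729. The strand of the reads and the treatment of reads in overlaps are not given, so reads of Ppp2ca and of this RNA cannot be told apart there.

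A second antisense overlap lies at the other end of Ppp2ca. Gm24157, annotated as a miRNA gene on the minus strand (chromosome 11, 52099043 to 52099153), shares 108 bases with exon 1 of Ppp2ca. It had 257, 247 and 318 normalised reads in KO and 268, 217 and 256 in WT, and the groups overlapped (log2 fold change 0.15 ± 0.21 SE, limma adjusted p = 0.667). Reads of this row and of Ppp2ca cannot be told apart by strand either. Mir3061, which lies in exon 7 on the same strand, had at most 1.17 normalised reads in any library. The intronic overlap Gm26551 averaged 4.57 in KO and 4.48 in WT. Within 100 kb of Ppp2ca, Ube2b, a ubiquitin-conjugating enzyme, fell to 5300 ± 251 normalised reads in KO, against 6836 ± 708 in WT (SD, n = 3 each, log2 fold change −0.36, limma adjusted p = 0.0361), a call lost in 7 of 19 alternatives, 4 of them the fits without KO replicate 1, KO replicate 3, WT replicate 1 or WT replicate 3. Cdkl3, a kinase gene upstream of Ppp2ca, averaged 229 ± 25.3 in KO and 138 ± 10.04 in WT (log2 fold change 0.72, limma adjusted p = 0.0517), and passed in 10 of 19 alternatives. The olfactory receptor gene Olfr1373 and the antisense gene Gm12204 averaged at most 2.94 in either group.

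Among the other 5 genes, overlaps touched Ppp2r1b and Ppp6c. Sik2, a kinase gene on the opposite strand (chromosome 9, 50892801 to 51009073), shares 1429 exonic bases with Ppp2r1b, or 22.2%, in its exon 17. Sik2 had 1394, 1306 and 1332 normalised reads in KO and 1275, 1138 and 1036 in WT (log2 fold change 0.23 ± 0.12 SE, limma adjusted p = 0.217). The pseudogene Gm13511 lies in Ppp6c without sharing its exons, and its highest value was 7.86, in KO replicate 2.

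Genes whose profile over the 6 libraries was most like that of each member were found by the root mean square difference of centred log2 values, in a comparison of 10684 genes whose mean was 100 or more. For Ppp2ca these were Ago4 (0.043), Ppie (0.045) and Zkscan14 (0.045), where the median over all compared genes was 0.369. Ppie, a spliceosomal prolyl isomerase, had 4017, 4014 and 4103 normalised reads in KO, against 5802, 5479 and 5888 in WT. For Ppp2cb the closest were Nploc4 (0.130), Zfp995 (0.145) and Prrg1 (0.145), against a median of 0.587. Nploc4, a cofactor of the p97 ATPase, had 2118, 862 and 1494 normalised reads in KO and 845, 797 and 906 in WT, so its KO libraries stood in the same order as those of Ppp2cb. For the scaffold genes the closest were Cenpp, Suds3 and Smtn (0.029 to 0.032, Ppp2r1a) and Dnajc8, Nuf2 and Naa38 (0.026 to 0.029, Ppp2r1b). For Ppp4c they were Gcsh, Uap1l1 and Fuca2 (0.015 to 0.026), and for Ppp6c Bckdk, Acp5 and Pyroxd1 (0.038 to 0.064). With 6 libraries in 2 groups, such likeness is a description.

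The share of genes of the surrounding complexes that was called depended on the fit. Of 46 listed genes, 44 were tested, 8 rose and 2 fell, or 22.7%, beside 23.3% of all genes tested, and their median log2 fold change was 0.14, beside −0.02 over all genes. The 2 that fell include Ppp4r4, which was at 0 in every KO library and whose call is a description. The shares were 47.7% of the listed genes and 33.9% of all genes with library quality weights, 34.1% and 23.7% with TMM scaling, and 6.82% and 14% without the intensity trend. Of 13 tested regulatory B subunits of PP2A, 1 rose, with a list median of −0.04 that turned positive with upper quartile scaling (0.0058). Strn, a striatin scaffold of the STRIPAK complex, had 2759, 2248 and 2605 normalised reads in KO, against 1813, 1808 and 1613 in WT (log2 fold change 0.54 ± 0.12 SE, limma adjusted p = 0.0144). It lost its call without KO replicate 3 (limma adjusted p = 0.0641) and without the intensity trend (limma adjusted p = 0.0577). Of 13 inhibitors, assembly and methylation factors, 3 rose and 1 fell, with a median of 0.11, or −0.04 when scaled to library totals. The inhibitor Set averaged 66801 ± 1727 in KO and 47683 ± 2946 in WT (log2 fold change 0.49), and the acidic nuclear phosphoprotein Anp32e 12614 ± 820 in KO and 8628 ± 1058 in WT (0.55). The call of Set held in all 19 alternatives, and that of Anp32e was lost without the intensity trend (limma adjusted p = 0.0609). C330027C09Rik, which encodes the inhibitor CIP2A, rose (0.38), and Ensa, an inhibitor of B55 forms of PP2A in mitosis, fell (−0.30). The call of C330027C09Rik ended when KO replicate 2, KO replicate 3, WT replicate 2 or WT replicate 3 was left out, and that of Ensa when any library other than WT replicate 2 was. Igbp1, the partner shared by the 3 phosphatases, averaged a log2 fold change of 0.16 (95% interval −0.07 to 0.39) and did not pass.

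Ankrd52 and Ankrd28, regulatory subunits of PP6, held the 2 largest fitted changes among these lists apart from Ppp4r4. The fitted change of Ppp4r4 depended on the value added before the logarithm. Ankrd52, an ankyrin repeat subunit of PP6, had 523, 601 and 488 normalised reads in KO, against 185, 201 and 236 in WT. All KO libraries lay far above the WT libraries (log2 fold change 1.37 ± 0.19 SE, limma adjusted p = 0.00273), and the call held in all 19 alternatives. Ankrd28, another ankyrin repeat subunit of PP6, had 10218, 8763 and 9191 in KO, against 6507, 4764 and 3853 in WT (0.93, limma adjusted p = 0.00969). The call of Ankrd28 was lost without the intensity trend (limma adjusted p = 0.053). Ankrd44, a related PP6 subunit, averaged 4126 ± 165 in KO and 2859 ± 669 in WT (0.56, limma adjusted p = 0.0502) and missed the threshold. Of the 6 PP6 subunits tested, 2 rose, or 33.3%, with a median of 0.44. Of the 5 PP4 subunits, 1 rose and 1, Ppp4r4, fell, or 40%, with a median of 0.30. Both shares rest on few genes and stand beside 23.3% of all genes tested. Ppp4r3b, a substrate-binding PP4 subunit, averaged 13260 ± 1006 in KO and 10225 ± 860 in WT (0.38, limma adjusted p = 0.0273), a call lost in 8 of 19 alternatives, among them the fits without KO replicate 1, KO replicate 3, WT replicate 1 or WT replicate 2. Ppp4r4, a further PP4 subunit gene, had 0 reads in every KO library, against 24.6, 19.98 and 17.03 normalised reads in WT. Its fitted log2 fold change was −4.41 with 1 added to each value and −7.67 with 0.1 added. Against a floor of 3 reads per library Ppp4r4 was at least 7.04-fold lower. It passed the filter on low values only through the WT libraries, so its call is a description.

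**Figure D5:**
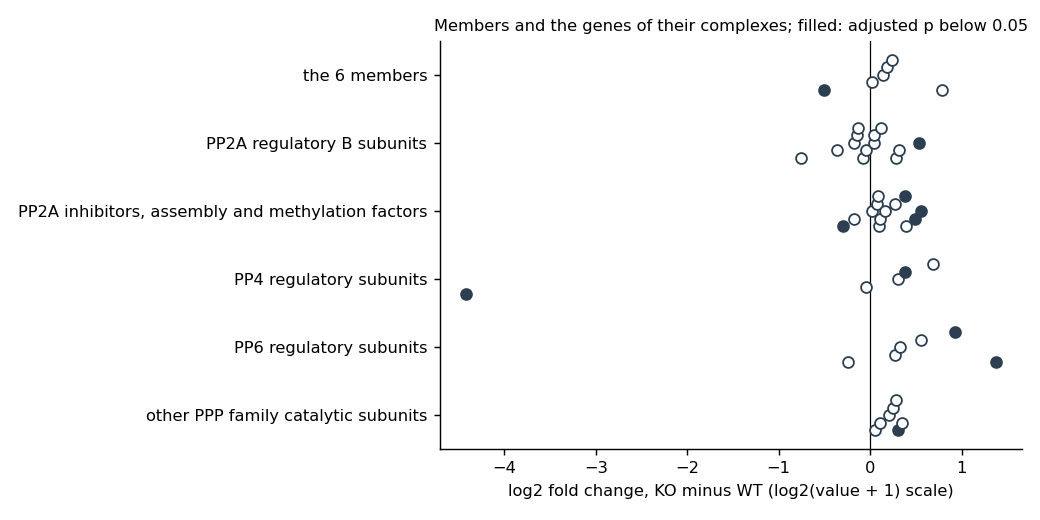
Log2 fold changes, KO minus WT (horizontal axis), of the 6 genes and of the tested genes of 5 lists, 1 point per gene, filled where the limma adjusted p was below 0.05. Points are spread vertically within a list only to separate them. Ankrd52 at 1.37 lies farthest to the right, and Ppp4r4, at 0 in KO, lies far to the left.

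Catalytic genes of more distant phosphatases of the family had positive log2 fold changes in 7 of 7 cases as deposited. This was so in 6 of 7 with quantile normalization and in 5 of 7 scaled to library totals. Of the 7, 1 passed, or 14.3%, beside 23.3% of all genes tested. That gene was Ppp1cc, the gamma catalytic subunit of PP1, with 10421 ± 575 normalised reads in KO and 8459 ± 694 in WT (SD, n = 3 each, log2 fold change 0.30, limma adjusted p = 0.0469). Its call was lost in 9 of 19 alternatives, among them the fits without KO replicate 1, KO replicate 3, WT replicate 1 or WT replicate 2. Ppp1ca, the alpha subunit of PP1, averaged a log2 fold change of 0.05 (95% interval −0.13 to 0.23), and the median of the list was 0.25. Ppp4c (0.24) and Ppp6c (0.18) lay close to that median, while Ppp2ca lay below and Ppp2cb above all 7 of these genes.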

How the data were processed

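Members and gene lists were chosen with earlier results of these data known. Per the labels' protocols, the RNA came from a Trizol extraction and the libraries from a VAHTS mRNA-seq kit. The submitters' processing notes name HISAT2, StringTie, mm8 and mm10 without versions or roles, and no source used here gives the counting step or strand. The authors deposited a signal per gene and library, named only as expression in the headers. In each library 100% of values were whole multiples of the same step (tolerance 0.01 read), so whole reads were recovered. The 49035 identifiers whose version GENCODE M21 (GRCm38) also holds all matched its start and end, and exonic (union of all exons), principal transcript and coding lengths came from it.

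The main fit was limma 3.58.1 in R 4.3.3 (a trended eBayes fit) on log2(value + 1), for the 20136 genes that reached 1 in 3 or more of the libraries. P-values are two-sided, Benjamini-Hochberg adjusted over all of them, with 0.05 as the threshold. Fold changes on this scale understate low genes. The procedure was tested on simulated data. Ratios were compared by exact permutation over libraries. Named were the 6 members, overlapping genes and tested neighbours of Ppp2ca, list genes that passed, and the 3 most alike profiles per member. Nkg7, Pdgfrb, Cxcl12, Kdr, Col1a2, Fgd5, Hoxb5, Siglech, Igkc, Cd79b, Mpo, Csf1r, Ankrd44, Igbp1, Ppp1ca and Mir3061 were named after their values were seen. Library pairs differed beyond sampling noise (chi-square per degree of freedom 38.0 to 209). Alternatives included edgeR 4.0.16 and DESeq2 1.42.0 on recovered reads. Molecular identifiers are not stated, so the floor covers counting error only.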

Additional observations from a re-analysis of the deposited data

How the results depend on the processing

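The direction and call of Ppp2ca held in all 19 alternatives, and the 4 ratios in which the groups did not overlap stayed lower in KO in all of theirs. Ppp2cb passed with library quality weights (0.83), with DESeq2 on recovered reads (0.86) and without KO replicate 2; leaving out single libraries gave 0.47 to 1.10. Ppp4c passed with library quality weights (0.23) and upper quartile scaling (0.29). Signs turned for Ppp2r1a (quantile normalization −0.0396, library totals −0.0045) and Ppp2r1b (−0.0787 and −0.12, and −0.0307 to 0.0867 over fits without single libraries), for Gm26551 (library quality weights −0.18, library totals −0.0095, down to −0.19 without single libraries), and, without KO replicate 2, for the ratios Ppp2r1a to Ppp2r1b (−0.0042 to 0.23 over single libraries left out) and Ppp4c to Ppp6c (−0.11 to 0.177). The cause was not tested.

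Of all genes, 2069 were higher and 2622 lower. On recovered reads edgeR called 2102 higher and 2382 lower. Higher genes numbered 1071 without the intensity trend, 3198 with library quality weights, 1317 scaled to library totals and 993 to 1787 without single libraries, and lower genes 1565 to 2604 without single libraries. Of the listed complex genes, 8 higher and 2 lower became 2 and 1 without the trend, 17 and 4 with quality weights, 13 and 1 with upper quartile scaling, 13 higher with TMM, 5 higher with library totals, 14 higher with DESeq2, and 4 to 9 higher and 0 to 1 lower without single libraries. The shares called, listed genes beside all genes, were 36.4% and 28.2% with DESeq2, 31.8% and 24.5% with upper quartile scaling, 15.9% and 23.9% with library totals and 13.6% and 19.2% with the replicate block. The median log2 fold change of all genes moved from −0.02 to at most 0.08 and −0.08 under other scalings.

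Same-numbered KO and WT libraries deviated with correlations of −0.02, −0.01 and −0.02, so no shared deviation was seen. This cannot show whether same-numbered libraries were prepared as pairs. With the replicate block, the log2 fold change of Ppp2cb stayed at 0.78 with a limma adjusted p of 0.0490, and the complex genes called were 5 higher and 1 lower. The choice of length moved the levels of single genes, as given above, and changes no KO to WT ratio of a single gene.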
